A study of Sus scrofa with 4 samples.

Results

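Cytosolic ribosomal protein genes were examined in 4 RNA-seq libraries of porcine fetal fibroblasts, cells of fetal pig skin that serve as nuclear donors in cloning. Protein-coding genes were taken whose symbol in the deposited counts begins with RPL, RPS or RPLP followed by a digit, together with RPSA, leaving out the RPS6K kinases and RPS19BP1, which are not ribosomal proteins. The rule gave 50 of the 35670 genes listed, of which 48 had enough reads to be tested; RPL10L and RPL3L had 0 to 2 reads in every library. Another 17 ribosomal protein genes carry no symbol in the count files and are named only by a table that pairs gene identifiers with symbols. They are given separately, and subunits under neither name, RPS6 among them, were not analysed here. The libraries fall into 2 groups of 2. Controls have the genotype WT and the title pTK-642, and the others have the genotype BRG1-overexpressed and the title pTK-642-BRG1. All 4 were serum starved, and what pTK-642 stands for is not explained in the sources used here. BRG1 is the ATPase of the BAF chromatin remodelling complex, and the series asks what an excess of it in donor cells does to their chromatin.

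The cytosolic ribosome has a small (40S) subunit, which reads the mRNA, and a large (60S) subunit, which joins amino acids. Each subunit takes 1 copy of nearly every one of its proteins, so cells make these proteins in balanced amounts. Their mRNAs are short and abundant, and most begin with a pyrimidine tract (the TOP motif) through which mTORC1 and LARP1 control their translation and stability. In fibroblasts, ribosomal protein synthesis rises with growth and falls in quiescence, as after serum withdrawal.

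Gene counts summed to between 34486400 and 38126860 per library. SMARCA4, which encodes BRG1 (ENSSSCG00000013629), did not check the labels: it stood at 154 and 179 CPM (reads relative to library size, scaled by TMM, the trimmed mean of M-values) in controls 1 and 2 and at 159 and 163 in the BRG1-labelled libraries, with a log2 fold change of -0.04 ± 0.11 (SE; edgeR, adjusted p = 0.765). Directions below are therefore those of the BRG1-labelled libraries. All 9 fibroblast markers found among the genes were detected, and their sum was 25577 and 28743 CPM in controls and 35942 and 36002 CPM in the BRG1-labelled libraries. The sum mixes directions: COL1A1 (log2 fold change 1.04), COL1A2 (0.95), DCN (1.41), LUM (1.23) and PDGFRA (0.34) were higher, while VIM (-0.27), COL3A1 (-0.21), S100A4 (-0.28) and PDGFRB (-0.22) did not pass. The part of these markers in the results was not tested. Markers of keratinocytes, endothelial, blood, muscle and fat cells each summed to under 10 CPM in every library, with KRT5, KRT1, KRT15, TEK, PTPRC, MYOD1 and ADIPOQ at 0 in all 4. The 6 melanocyte markers summed to 8.37 and 8.16 CPM in controls and to 17.1 and 16.6 CPM in the others, nearly all of it MITF (7.80 and 7.66 against 16.9 and 16.5 CPM); MLANA went from 15 and 7 reads to 0 and 0, and PMEL, TYR, DCT and SOX10 had 0 to 8 reads. Nothing in the labels says whether replicates were separate cultures, so the p-values cover only the spread among these 4 samples, which may be technical. In bulk RNA, fewer cells of a type and less RNA per cell cannot be told apart.

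Ribosomal protein genes took a smaller share of the reads in the BRG1-labelled libraries. The 50 genes held 5.27% of all gene counts in control 1, 4.36% in control 2, 3.23% in BRG1-labelled library 1 and 3.27% in library 2. The controls lay apart from each other by more than the BRG1-labelled libraries did, and both lay above both of the others. The controls averaged 4.81% ± 0.64 and the BRG1-labelled libraries 3.25% ± 0.03 (SD, n = 2). With 2 against 2, an exact two-sided permutation test cannot go below p = 0.333. The 17 genes named by the table held 2.09%, 1.70%, 1.34% and 1.35% in the same order.

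Between the groups, 40 of the 48 tested genes were lower at an adjusted p of 0.05 and 0 were higher, against 23.6% and 21.0% of all 14617 genes tested (quasi-likelihood test of edgeR, p-values adjusted by Benjamini and Hochberg; 43 of the 48 had an unadjusted p under 0.05, and DESeq2 called 42 lower and 0 higher). The median log2 fold change of the 48 was -0.77, and that of all genes tested 0.02. In 43 of the 48 genes both controls lay above both libraries labelled BRG1, as in 35.7% of all genes tested. Every tested member had at least 686 reads in each library, so the filter on low counts did not choose among them. The lowest mean of a member that is the usual gene for its subunit was 188 CPM. Among the 940 genes tested with at least that mean, 464 were lower (49.4%) and the median was -0.28. These 940 include the members that are the usual genes for their subunits.

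**Figure D1:**
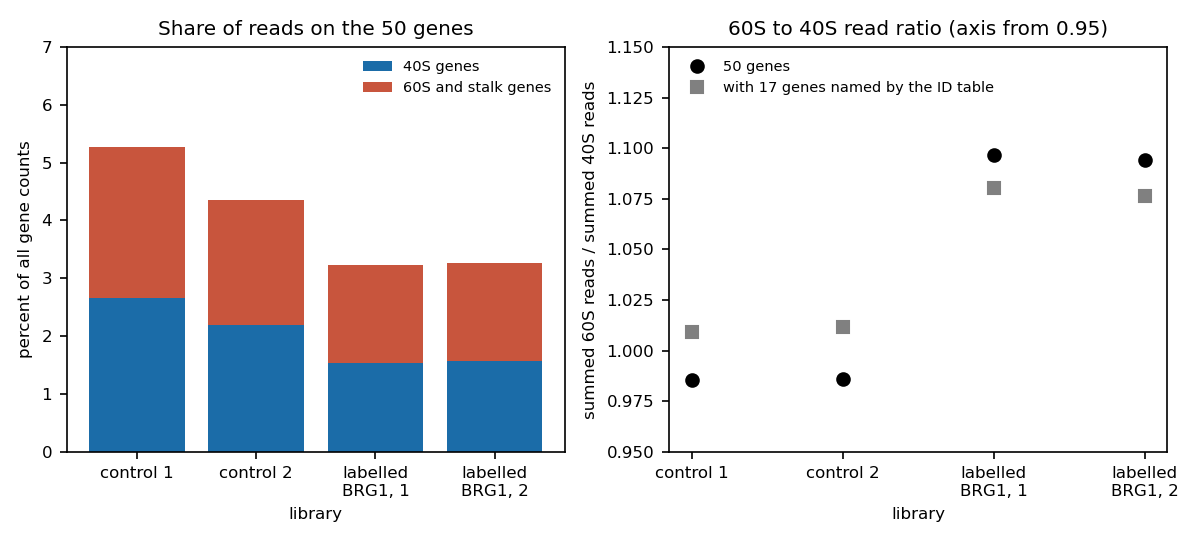
Left, the percent of all gene counts on the 50 ribosomal protein genes in each library, stacked by subunit; right, summed 60S reads (stalk included) divided by summed 40S reads, for the 50 genes (circles) and with the 17 table-named genes (squares), on an axis that starts at 0.95. The share falls from 5.27% and 4.36% in controls to 3.23% and 3.27%, and the ratio of the 50 genes stands near 0.99 in both controls and near 1.10 in both others.

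The controls themselves differed in these genes. Control 1 was the highest of the 4 libraries in all 48 tested members. The log2 difference of control 1 minus control 2 ran from 0.09 (RPL37) to 0.53 (RPL35A), with a median of 0.30. Over all genes tested the median was 0.01, and control 1 was above control 2 in 51.5% of them. Between the BRG1-labelled libraries the members differed little: library 1 minus library 2 ran from -0.15 to 0.07 with a median of -0.02, and library 1 was the higher in 14 of 48, against 49.8% of all genes tested. The spread between the controls thus came to about 0.30 on the log2 scale beside a group difference of -0.77. With control 2 alone as the control the median of the members was -0.61, and with control 1 alone it was -0.91.

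**Figure D2:**
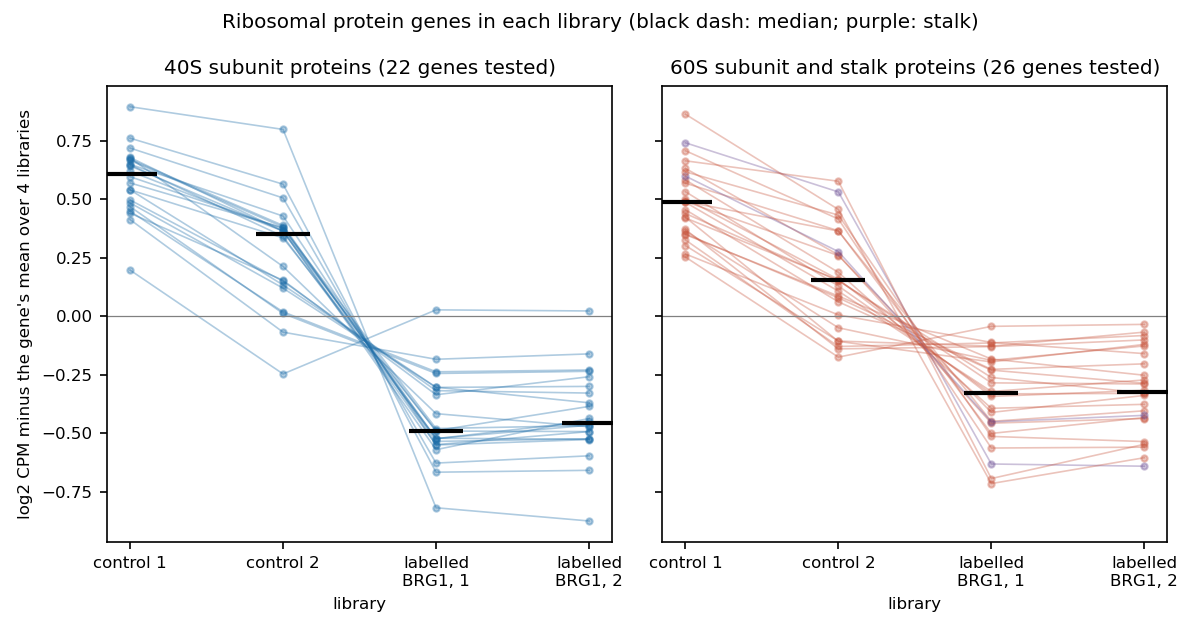
Log2 CPM of each tested member minus its mean over the 4 libraries, 1 line per gene, 40S proteins on the left and 60S and stalk proteins (purple) on the right; black dashes are medians. Over all 48 genes the medians are 0.54 in control 1, 0.20 in control 2, and -0.40 and -0.37 in the BRG1-labelled libraries.

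**Figure D3:**
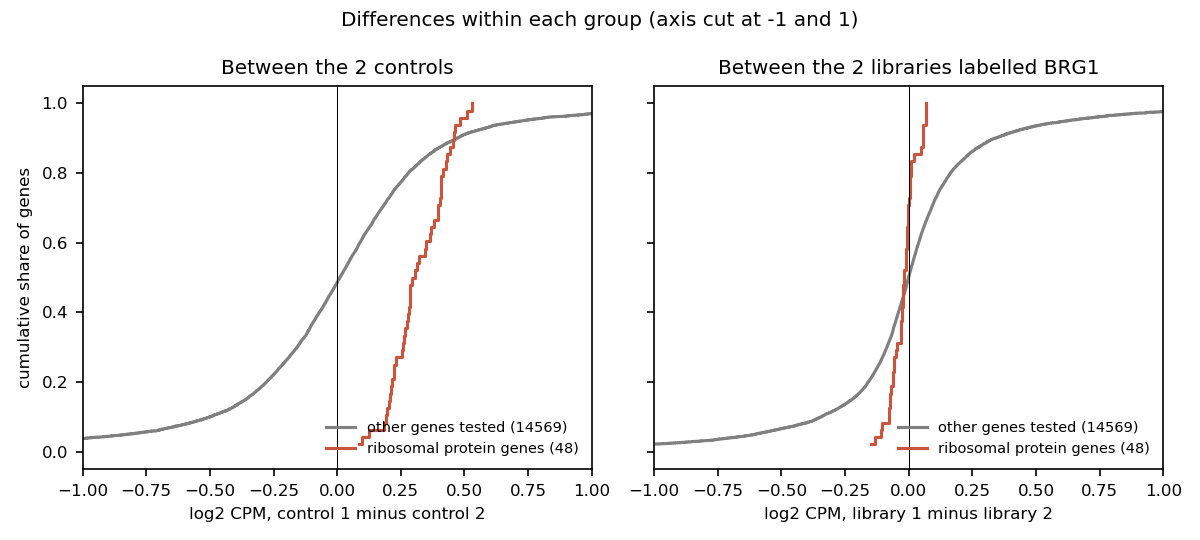
Cumulative share of genes by the difference between the 2 libraries of a group, in log2 CPM, for the 48 members (red) and the 14569 other genes tested (grey). The members lie wholly above 0 between the controls, from 0.09 to 0.53, and around 0 between the BRG1-labelled libraries, from -0.15 to 0.07.

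Other library measures also differed between the groups. Reads assigned to no gene, a class that can hold intronic as well as intergenic reads, came to 6.11% and 7.34% of reads in controls 1 and 2 and 10.3% and 10.5% in the BRG1-labelled libraries. Reads set aside as overlapping several genes were 2.33% and 2.14% in controls, against 1.91% and 1.90%. Multiply aligned reads were 1.80% and 1.60%, against 1.42% and 1.42%. Ribosomal protein genes have many processed pseudogenes and host small nucleolar RNAs in their introns, so their reads are prone to fall in these classes. The part of these measures in the result was not tested.

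Of the tested genes for proteins of the 40S subunit 21 of 22 were lower (95.5%), with a median log2 fold change of -0.96. Over all genes tested 23.6% were lower. RPS21 (ENSSSCG00000021825; Sscrofa11.1 chromosome 17, 61763606 to 61764823), a small protein of the 40S subunit, had the lowest value of all members. It stood at 465 and 435 CPM in controls 1 and 2 and at 142 and 136 CPM in the BRG1-labelled libraries. Its controls lay 0.10 apart on the log2 scale, and its log2 fold change was -1.70 ± 0.10 (SE; edgeR, adjusted p = 1.14e-08), a fall of 69.1%.

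RPS12 (chromosome 1, 30920804 to 30923392), a protein of the 40S beak, fell from 1960 and 1710 CPM to 728 and 732 (-1.33 ± 0.12; edgeR, adjusted p = 3.55e-07). The distance between its groups was several times that between its controls, which lay 0.20 apart on the log2 scale, and the BRG1-labelled libraries were nearly level.

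RPS14, whose loss is linked to the anaemia of the 5q- syndrome, fell from 1222 and 1023 CPM to 566 and 565 (-0.99 ± 0.12). RPS27A, which is made as a fusion of ubiquitin to a 40S protein, fell from 724 and 525 CPM to 339 and 326 (-0.91 ± 0.13; edgeR, adjusted p = 7.06e-05). RPS3, which lines the mRNA entry channel, fell from 1538 and 1209 CPM to 874 and 867 (-0.66 ± 0.13). None of these 3 genes overlapped between the groups, but the controls of RPS27A lay 0.46 apart on the log2 scale.

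RPSA (chromosome 13, 24072551 to 24081536), a 40S protein also known as the laminin receptor, stood at 2075 and 1611 CPM in controls and 1201 and 1204 in the BRG1-labelled libraries (-0.62 ± 0.13; edgeR, adjusted p = 0.00119), a call lost without either BRG1-labelled library. RPS19, the gene most often mutated in Diamond-Blackfan anaemia, stood at 1523 and 1130 CPM against 946 and 951 (-0.48 ± 0.13; edgeR, adjusted p = 0.00828). RPS3A stood at 1196 and 856 CPM against 790 and 803 (-0.37 ± 0.14; edgeR, adjusted p = 0.0432). In RPS3A control 2 lay only just above the other group, and its call was lost with library-size scaling, with the stricter count filter, with the trend with gene span removed and without either BRG1-labelled library. The RPS19 call was lost in the same settings other than the stricter filter.

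The stalk of the 60S subunit, formed by RPLP0 with pairs of RPLP1 and RPLP2, recruits the elongation factors. RPLP1 (chromosome 1, 167296084 to 167298264) stood at 2600 and 2248 CPM in controls and at 1003 and 997 in the BRG1-labelled libraries (-1.28 ± 0.12; edgeR, adjusted p = 6.60e-07). RPLP0 (chromosome 14, 40219196 to 40223943) stood at 4457 and 3563 CPM against 2151 and 2193 (-0.88 ± 0.13; edgeR, adjusted p = 5.80e-05). RPLP2, one of the 17 table-named genes, stood at 1529 and 1400 CPM against 489 and 517 (-1.54 ± 0.11; edgeR, adjusted p = 5.77e-08). All 3 stalk genes were thus lower by unequal amounts, RPLP0 least. Summed RPLP0 and RPLP1 reads, divided by those of the other 48 genes, came to 0.140 and 0.142 in controls and to 0.118 in both libraries labelled BRG1.

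Of the tested genes for the other 60S proteins, 17 of 24 were lower (70.8%, against 23.6% of all genes tested), with a median of -0.60. Largest were the falls of RPL37A, from 547 and 413 CPM to 183 and 198 (-1.33 ± 0.13), and RPL37, from 1238 and 1165 CPM to 483 and 534 (-1.24 ± 0.11), both small zinc-binding proteins. RPL37 had the smallest difference between the controls of all 48 members, and RPL37A one of 0.41. RPL18, another 60S protein whose controls lay close (0.13), fell from 1029 and 943 CPM to 536 and 553 (-0.86 ± 0.11). RPL3, which reaches towards the peptidyl transferase centre, was lower by less, at 1581 and 1308 CPM against 1058 and 1076 (-0.44 ± 0.12; edgeR, adjusted p = 0.00763), and so was RPL4, which lines the exit tunnel, at 1948 and 1624 CPM against 1347 and 1284 (-0.44 ± 0.12; edgeR, adjusted p = 0.00759). Neither of these last 2 calls held with library-size scaling, with the span trend removed or without either BRG1-labelled library.

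The 8 tested members that did not pass were 7 genes of the 60S group, RPL35A, RPL23, RPL7L1, RPL22, RPL9, RPL6 and RPL23A, and RPS27L. RPL23 and RPL7L1 missed the threshold narrowly (edgeR, adjusted p = 0.0505 and 0.0522). Both were called lower with the size factors of DESeq2, with TMM scaling without the members and with no filter on low counts. Neither was called with library-size scaling or with the stricter count filter. RPL23A (chromosome 12, 44956851 to 44960737), which docks nascent-chain factors at the tunnel exit, stood at 346 and 257 CPM in controls and at 282 and 284 in the other group (-0.09 ± 0.13). Both libraries labelled BRG1 lay between its controls, and its value was 0.13 with control 2 alone and -0.31 with control 1 alone. With library-size scaling it was 0.13, and after removal of the span trend 0.25, neither past the threshold. RPL6 stood at 1431 and 1078 CPM against 1062 and 1107 (-0.21 ± 0.13), RPL9 at 702 and 512 against 517 and 529 (-0.21 ± 0.13), and RPL22, an RNA-binding protein of the 60S surface, at 241 and 169 against 170 and 173 (-0.25 ± 0.14). In these 3 genes control 2 was level with the BRG1-labelled libraries and control 1 stood above them. RPL35A and RPL23 did not overlap between the groups, and their 95% intervals ran from -0.64 to -0.04 and from -0.61 to -0.05. A value that missed the threshold does not show that a gene did not differ.

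**Figure D4:**
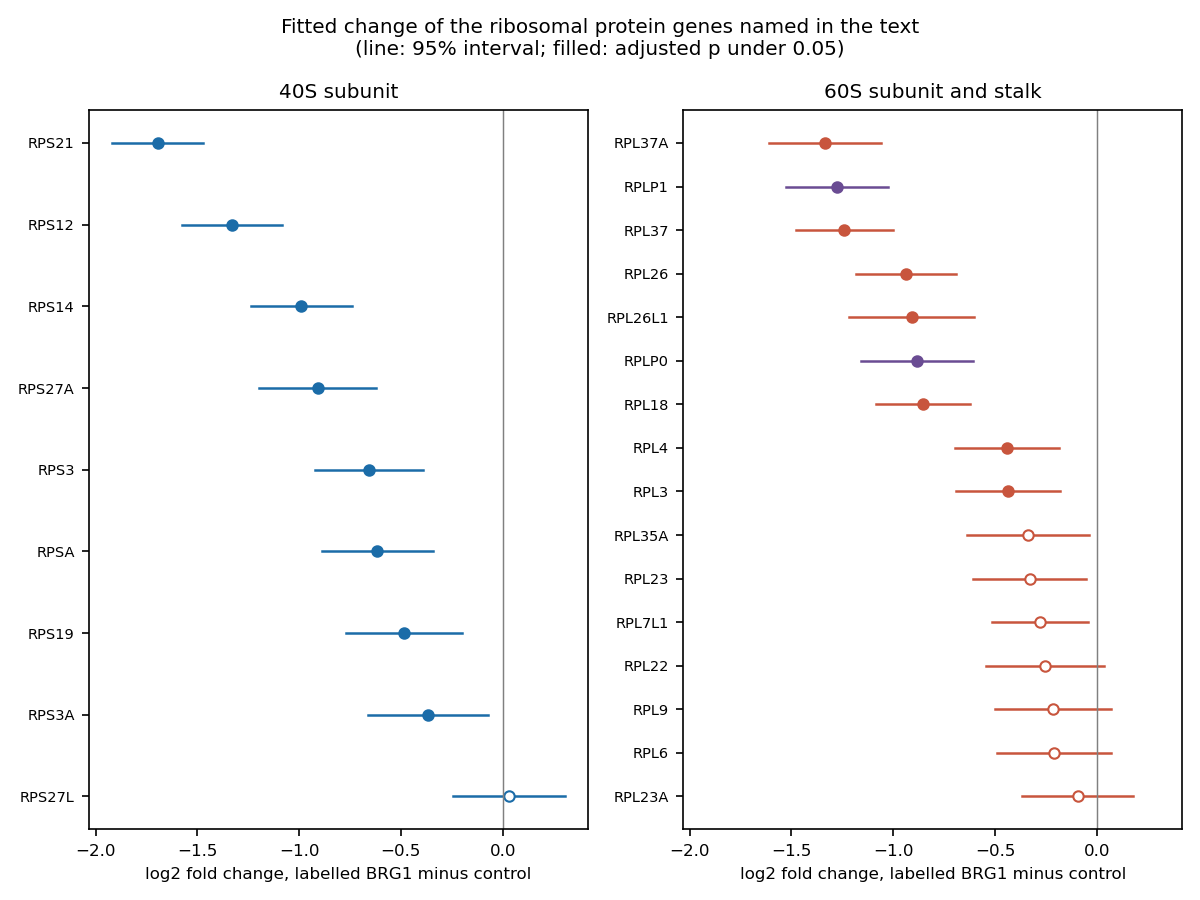
Fitted log2 fold change of the tested members named in the text, libraries labelled BRG1 minus controls, with its 95% interval; filled points passed an adjusted p of 0.05. RPS21 lies lowest at -1.70 and RPS27L highest at 0.03, and 7 of the 8 open points are 60S genes.

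The balance between subunits was measured within each library, where scaling cancels. Summed reads of the 28 members of the 60S group divided by those of the 22 members of the 40S group gave 0.986 in both controls, and 1.10 and 1.09 in the BRG1-labelled libraries. The mean ratio went from 0.986 to 1.095, while the controls, which differed in the total, had the same ratio to 3 digits. With the 17 table-named genes added, to 37 and 30 genes, the ratios were 1.01, 1.01, 1.08 and 1.08, a difference of 6.72%. An exact permutation test of 2 against 2 cannot go below p = 0.333 for either ratio. Among members in the shortest decile of gene spans, up to 5.15 kb, 15 of 17 genes of the 60S group (median -0.78) and 14 of 15 of the 40S group (median -0.997) were lower, and the read ratios were 1.148, 1.154, 1.238 and 1.244. Of the other genes tested in that decile 42.5% were lower.

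Members were also set against the median member of the same library, which removes their common shift. RPS21 had the largest downward shift, and its log2 level against that median changed by -0.90 between the groups. RPS12, RPL37A and RPLP1 shifted by -0.53, -0.53 and -0.48. The log2 shift within this pool was 0.60 for RPL6, 0.59 for RPL9, 0.71 for RPL23A and 0.84 for RPS27L. In these 8 genes the largest difference between 2 libraries of a group was 0.18, and each shift was larger than that; no test was made, since the pool is made of the members themselves.

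Some subunits have a second gene in the genome. RPS27L, the p53-inducible relative of RPS27, stood at 81.7 and 60.1 CPM in controls and at 72.6 and 72.4 in the BRG1-labelled libraries (0.03 ± 0.13; edgeR, adjusted p = 0.864). Its value was 0.26 with control 2 alone and -0.19 with control 1 alone, and it was called higher with the span trend removed (0.35). RPL26L1, a near copy of RPL26, stood at 38.5 and 29.8 CPM against 18.1 and 18.3 (-0.91 ± 0.14), and RPL26 at 1360 and 1181 against 648 and 679 (-0.94 ± 0.11). RPL7L1, a nucleolar relative of RPL7, had a value of -0.28 ± 0.11 (edgeR, adjusted p = 0.0522), and the table-named RPL7 one of -0.36 ± 0.13 (edgeR, adjusted p = 0.0395). RPL36AL and RPL36A, both table-named, fell by 0.68 and 0.80 on the log2 scale. Reads of such close pairs may be divided or set aside by the counting, and no difference within a pair was tested.

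Of the 17 table-named genes 16 were lower (94.1%) and 0 higher, with a median of -0.68, beside 23.6% and 21.0% of all genes tested. RPL10, which completes the tRNA-binding face of the 60S subunit, fell from 2714 and 2152 CPM to 1262 and 1225 (-0.97 ± 0.13), and RPS20 of the 40S head from 2213 and 1747 CPM to 1043 and 1020 (-0.94 ± 0.13). RPL5 and RPL11, which bind 5S ribosomal RNA and, when free, the p53 ligase MDM2, were lower by less. RPL5 stood at 1079 and 865 CPM against 771 and 771 (-0.33 ± 0.12; edgeR, adjusted p = 0.0357), and RPL11 at 980 and 765 against 599 and 624 (-0.51 ± 0.12; edgeR, adjusted p = 0.00366). RPS25 did not pass (-0.25 ± 0.13). Control 1 was the higher control in all 17, as in the 48.

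The log2 fold change of the members rose with the length of genome they span. All 50 have a span in the RefSeq table of Sscrofa11.1, on 15 chromosomes, and 48 of the 50 span under 10 kb; RPL18 matches 2 entries there, of which the longer was taken. Across the 48 tested genes, which share the same 4 libraries, Pearson's r with log10 span was 0.53 and Spearman's rho 0.54, and with mean log2 CPM they were -0.21 and -0.18. In the shortest decile of spans the 32 members had a median of -0.94 and the 1101 other genes one of -0.34, of which 42.5% were lower. In the next decile, up to 9.34 kb, 15 members had a median of -0.48 and 1118 others one of -0.28. The controls followed the span too, with control 1 minus control 2 at a median of 0.14 in the other genes of the shortest decile and 0.29 in the members there. With each library's trend with span removed, 33 members were lower and 1 higher, and their median was -0.44.

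**Figure D5:**
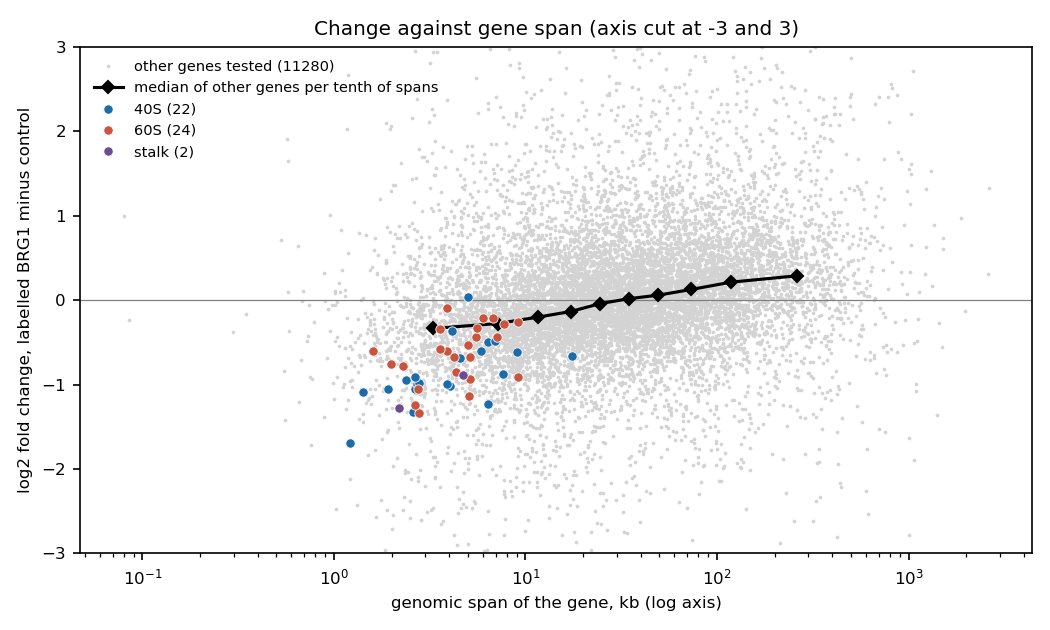
Fitted log2 fold change, libraries labelled BRG1 minus controls, against the genomic span of each gene in kb on a log axis; grey points are other genes tested, black diamonds their medians in deciles of span, and coloured points the 48 members by subunit. The diamonds run from -0.34 in the shortest decile to 0.29 in the longest, and the members of the shortest decile have a median of -0.94, with RPL23A and RPS27L above its diamond.

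Other mRNAs with a TOP motif include the elongation factors. Of 17 such partners tested, 12 were lower (70.6%) and 0 higher, with a median of -0.44, beside 23.6% and 21.0% of all genes tested. Among the 940 genes of high level, which include members and the partners at that level, 49.4% were lower. RACK1, a scaffold on the 40S head, stood at 2873 and 2570 CPM in controls and at 1370 and 1379 in the BRG1-labelled libraries (-0.99 ± 0.12; edgeR, adjusted p = 7.16e-06). EIF3F and EIF3L, subunits of the initiation factor eIF3, fell by 0.59 and 0.57 on the log2 scale. EIF3E (0.14 ± 0.13) and NAP1L1, a histone chaperone (0.13 ± 0.13), did not pass; with library-size scaling 2 partners were called higher. Of the elongation factors, EEF1A1 stood at 18157 and 15770 CPM in controls and 10737 and 11111 in the other group (-0.63 ± 0.13). EEF2 (-0.44 ± 0.12) and EEF1D (-0.56 ± 0.11) were lower too, and EEF1B2 (-0.25 ± 0.14) did not pass. Member reads divided by partner reads, a sum in which EEF1A1 weighs most, gave 1.59 and 1.48 in controls and 1.34 and 1.33 in the BRG1-labelled libraries. Here too the smallest exact permutation p is 0.333.

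Of 20 genes listed as regulators around mTORC1, LARP1 and the S6 kinases 7 were lower and 4 higher, with a median of -0.05. The list also takes in LARP4, MYC and MAX, and MYC (-0.41 ± 0.10) and MAX (-0.48 ± 0.11) were among the lower. EIF4EBP1, a repressor of the cap-binding protein that mTORC1 inactivates, fell from 261 and 214 CPM to 93.3 and 89.9 (-1.37 ± 0.11; edgeR, adjusted p = 2.11e-07), while its relative EIF4EBP2 rose from 111 and 124 CPM to 219 and 219 (0.90 ± 0.10). RPS6KB1, the S6 kinase, rose from 33.6 and 35.3 CPM to 55.2 and 55.1 (0.68 ± 0.11), and DEPTOR, an inhibitor of mTOR, from 1.57 and 1.34 to 4.36 and 5.13 (1.70 ± 0.30). Also lower on this list were RPTOR (-0.35 ± 0.12), MLST8 (-0.49 ± 0.14), AKT1S1 (-0.31 ± 0.10) and RPS6KA3 (-0.51 ± 0.10), and TSC1 was higher (0.34 ± 0.13). MTOR (0.01 ± 0.12) and LARP1 (0.03 ± 0.13) did not pass, and their controls enclosed the BRG1-labelled libraries.

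Of 18 chaperones of ribosomal proteins and subunit assembly factors 9 were lower and 1 higher, with a median of -0.41. EIF6, which keeps free 60S subunits from joining 40S subunits, had the lowest value, from 358 and 335 CPM to 111 and 109 (-1.65 ± 0.10; edgeR, adjusted p = 1.18e-08). AAMP, a relative of the yeast chaperone of RPL10, fell by 0.85 ± 0.11 on the log2 scale, MRTO4, a factor related to RPLP0 that acts in stalk assembly, by 0.79 ± 0.12, and NOB1, the nuclease that finishes 18S ribosomal RNA, by 0.74 ± 0.12. LSG1, a GTPase of late 60S maturation, rose by 0.28 ± 0.11, a call lost with DESeq2 and with no filter on low counts.

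Of 14 genes listed under ribosome rescue and ribosomal protein quality control 5 were lower and 2 higher, with a median of -0.002. The list takes in the p53 ligase MDM2, which was among the higher (0.28 ± 0.10). PELO, which releases stalled ribosomes, fell from 70.1 and 63.7 CPM to 30.4 and 28.9 (-1.17 ± 0.11; edgeR, adjusted p = 8.44e-07), and UBE2O, a ubiquitin enzyme that acts on unassembled ribosomal proteins, by 0.61 ± 0.10 on the log2 scale. EDF1, a sensor of collided ribosomes, fell by 0.51 ± 0.10, and NEMF, which marks stalled chains on the 60S subunit, rose by 0.42 ± 0.12. In the lists of regulators, assembly factors and rescue genes, 35%, 50% and 35.7% were lower and 20%, 5.56% and 14.3% higher, beside 23.6% and 21.0% of all genes tested, so the regulators' share of higher calls was near that of all genes.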

How the data were processed

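Whole-number read counts per Ensembl gene were deposited by the authors, 1 file per library and not normalized. FastQC, STAR, SAMtools, Cufflinks, DESeq2, edgeR and the build Sscrofa11.1 are named per the submitters' processing notes; read counter, strand setting, annotation release and library selection are, in the sources used here, not given. Summary rows at the end of each file, which hold no gene, entered neither library sizes nor tests. Overlapping or antisense genes cannot be told apart.

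All 35670 genes entered 1 fit in R 4.3.3 with edgeR 4.0.16: filterByExpr (minimum count 10, minimum total 15), TMM scaling (factors 0.918, 0.931, 1.08 and 1.08), the quasi-likelihood F test of group without a block, and Benjamini-Hochberg adjustment over 14617 genes at 0.05. Log2 fold changes use a prior count of 0.125; the SE is the unshrunk value divided by the square root of F. Differences between 2 libraries are of log2 CPM with a prior count of 2. edgeR's common biological coefficient of variation came to 0.113. The test was checked on simulated data. Replicates correlated at 0.983 (controls) and 0.987 in log2 CPM, and their counts differed by a chi-square of 39.8 and 5.40 for each degree of freedom, more than sampling noise.

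Members and lists were chosen with earlier results of these data known. Named genes follow a rule: the stalk and a fixed set of members, second genes with their partners, the 6 lowest and 6 highest values, members that did not pass, extremes of level and of the difference between controls, and up to 4 genes per list; some genes it gives are not reported here. Outside this rule, and chosen after their values were seen, are RPL23, EIF3E, NAP1L1, MTOR, LARP1, LSG1 and NEMF. So are EEF1A1, EEF2, EEF1D, EEF1B2, RPTOR, MLST8, AKT1S1, RPS6KA3, TSC1, MYC, MAX and MDM2. List genes not found by symbol, 5 TOP partners and 2 assembly factors, were not analysed here. Alternatives were other scalings and filters, DESeq2 1.42.0, limma 3.58.1 (voom), the replicate number as a block, removal of each library's span trend and each library left out.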

Additional observations from a re-analysis of the deposited data

How the results depend on the processing

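The 48 members stayed lower on balance in every alternative run: 33 to 44 were called lower over scalings, filters, tests and span correction, and 29 to 48 with 1 library left out. Calls higher numbered 0, except 1 with the span trend removed and 0 to 2 with 1 library left out. The median of -0.77 was -0.54 with library-size scaling, which moved the median of all genes from 0.02 to 0.24, so that the members lay 0.79 below it in both, and -0.44 with the span trend removed; with 1 library left out it ran from -0.91 to -0.61. Against the 3444 lower and 3068 higher calls over all genes stood 2140 and 4819 with library size, and 2177 to 4321 and 1908 to 3673 with 1 library left out. RPL23A without control 1 (0.13) and RPS27L without control 2 (-0.19) counted as reversed, each in a fit with 1 control. With 1 library left out RPS27L ran from -0.19 to 0.26 (0.265 without control 1). Its value with the span trend removed, given above, was larger still. Of 624 refits of single members 563 kept side and direction, 35 lost the call and 24 gained one.

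For the 17 table-named genes the median of -0.68 was -0.46 with library size and -0.31 with the span trend removed, and 9 to 17 were lower with 1 library left out (median -0.82 to -0.52). With library size alone 2 TOP partners were higher, 2 regulators lower, 3 assembly factors higher, and 3 rescue genes lower and 5 higher. With the span trend removed 3 assembly factors were higher and 3 rescue genes lower; with no filter and with DESeq2 these lists held 0 and 1 higher. With 1 library left out TOP partners numbered 5 to 15 lower and 0 to 2 higher, regulators 1 to 9 and 3 to 7, assembly factors 6 to 12 and 0 to 2, and rescue genes 3 to 6 and 0 to 5. SMARCA4 ran from -0.15 (without control 1, past the threshold) to 0.048 with 1 library left out, and was 0.18 with library size alone and -0.21 with the span trend removed, neither past it.

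Chosen after the data were seen, the difference of the 60S to 40S ratio, 0.109, was 0.068 with the table-named genes, 0.090 in the shortest decile of spans and 0.105 without RPLP0 and RPS21, and 0.108 to 0.111 with 1 library left out. The median difference between the controls ran from 0.18 (span trend removed) to 0.30. Same-numbered libraries share only a number (correlation of their deviations -0.04 over all genes and 0.10 over the members); with the replicate block 42 members were lower and 0 higher. Where a group kept 1 library, it was assumed to vary like the other group. The controls differed more than the BRG1-labelled libraries did, by a chi-square of 39.8 against 5.40 for each degree of freedom. Calls from fits with 1 control thus rest on the smaller spread. With 2 libraries per group, precision is limited by replication, since each tested member had at least 686 reads per library.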

Other observations

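Small nucleolar RNA genes, many of which lie in introns of ribosomal protein genes, held 0.0066% and 0.0076% of gene counts in controls 1 and 2 and 0.0120% and 0.0116% in the BRG1-labelled libraries. Long noncoding RNA genes held 0.348% and 0.375%, against 0.567% and 0.566%, and genes with the biotype pseudogene 0.157% and 0.209%, against 0.270% and 0.272%. In each of these classes both libraries labelled BRG1 lay above both controls, the opposite order to the ribosomal protein share. Mitochondrially encoded mRNAs held 1.52% and 1.40%, against 1.58% and 1.59%. With 2 libraries per group none of these differences can reach an exact permutation p below 0.333.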
